A study of Mus musculus with 6 samples.

Results

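The 29 genes described here encode proteins of the small (40S) subunit of the cytosolic ribosome. They were taken by name from a list of small-subunit proteins, through the RefSeq accession that the array gives for each probe, out of 16535 named genes with a probe. All 29 had at least 1 probe, 20 of them had 1 and 9 had 2, or 38 probes in all. Both diets gave signals well above background for each of the 29 on all 4 arrays that entered the test, so every member was measured and none passed through 1 diet alone.

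The RNA was whole-blood RNA of male C57BL/6J mice, an inbred strain, aged 9 weeks, with 8 animals in each of the 2 diets. Control mice ate a normal diet, and the other mice were held at 50% food restriction (FR, CE-2 chow) for 2 weeks. Blood was drawn from the right ventricle of the heart under anaesthesia, frozen, and pooled within a diet before it was labelled, so no value belongs to a single mouse. In pool 1 all animals (1 to 8) were combined, while pool 2 held animals 1 to 4 and pool 3 held animals 5 to 8. Each pool was hybridised on 2 dual-colour arrays, once with FR in Cy5 and once with FR in Cy3, which makes 6 arrays. Since pools 2 and 3 come from different mice, they are the n = 2 replicates of the test. Pool 1 holds the same animals again and is given beside them as a repeat measurement on another slide. Values are log2 ratios of FR over control, so -1 is a halved and 1 a doubled transcript relative to the rest of the labelled RNA.

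A small subunit joins 18S ribosomal RNA to a set of proteins, mostly in 1 copy each. It binds the initiation factors, scans the messenger RNA for the start codon and holds the site where codon and anticodon pair. The mRNAs of these proteins share a tract of pyrimidines at their 5′ end, the 5′ terminal oligopyrimidine (TOP) motif, through which mTORC1 signalling and the protein Larp1 control their translation when nutrients change. In blood, white cells and young red cells (reticulocytes) both hold these mRNAs, and red cells lose their ribosomes as they mature. Loss of 1 copy of several of these genes, Rps19 first among them, causes Diamond-Blackfan anaemia, a failure of red cell production.

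The start sites of the members with the lowest and the highest ratios are shown first, since the TOP tract lies there. RefSeq's table for build GRCm38.p6 held a promoter window of 300 bases for 25 of the 29 genes, with 250 bases before and 50 after an annotated start. A shorter window of 30 bases is printed for the genes listed below, with 20 bases before the first transcribed base and 10 from it on. Rps27a, also among the genes with the lowest ratios, had no window. Rps21 has a further annotated start, with no run of 5, that is not printed. The windows are chr17:33955656-33955685 (minus strand) for Rps18, chr3:90213639-90213668 (minus) for Rps27, chr9:44407694-44407723 (plus) for Rps25, chr7:116334181-116334210 (minus) for Rps13 and chr10:128626497-128626526 (minus) for Rps26, the genes with low ratios. For the genes with high ratios they are chr2:180257359-180257388 (plus) for Rps21, chr9:120127746-120127775 (plus) for Rpsa and chr17:24720043-24720072 (plus) for Rps2. Capitals mark an unbroken run of at least 5 C or T letters that touches the 5 bases on either side of the start, and a run may go on past the last base shown.
Rps18: acttatacgtcacttccgCTCTCTCTTCCa
Rps27: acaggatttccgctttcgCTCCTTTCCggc
Rps25: tcctttttttccgacatcttagcgaggctg
Rps13: cgcgcgagagcaaacgtcggtgagtggcgt
Rps26: agcgggtcgggcaagccgccggaTCCTCTT
Rps21: gcacttaccgaggacccgCCCTCCTgccca
Rpsa: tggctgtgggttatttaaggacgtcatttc
Rps2: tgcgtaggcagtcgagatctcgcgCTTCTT

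The run was 11 letters long in Rps18 and 9 in Rps27, the 2 genes with the lowest ratios, and Rps25 and Rps13 had no run of 5 at the annotated start. Over the 25 genes with a window, 14 (56%) had such a run, against 35.1% of all 27025 genes with a window and 21 of 36 large-subunit genes. It was present in 7 of 13 members called lower, 2 of 3 called higher and 5 of 9 not called. The letters CCGGAA on either strand, the core to which ETS-family factors such as GABP bind, were found in 14 of the 25 full windows (56%) and in 16.7% of all genes. By call these were 10 of 13 lower members, 3 of 3 higher and 1 of 9 not called. A gene with several annotated starts, as 4 of the members have, was counted if any of them had the letters. Annotated starts can lie some bases from the start used in blood, and the counts describe letters and no binding.

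FR and control blood differed in small-subunit transcripts in both directions, and more members were lower than higher after restriction. Of the 29 members, 14 were called lower and 3 higher (limma, Benjamini-Hochberg adjusted p under 0.05 over all 11498 features tested), and 12 were not called. Among all features tested, 24.5% were called lower and 3.74% higher, or 28.3% in either direction, against 48.3% and 10.3% of the members. That background includes features that passed the filter on dim probes through 1 diet alone. Among the 7071 features above background in both diets, as all members were, 18.6% were lower and 6.17% higher, or 24.7% in either direction. The median ratio of the members was -0.30, and that of all features was 0.01. Among the lower members 4 reached 2-fold, and no higher member did. In bulk blood, fewer cells of a type and less RNA per cell cannot be told apart.

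**Figure D1:**
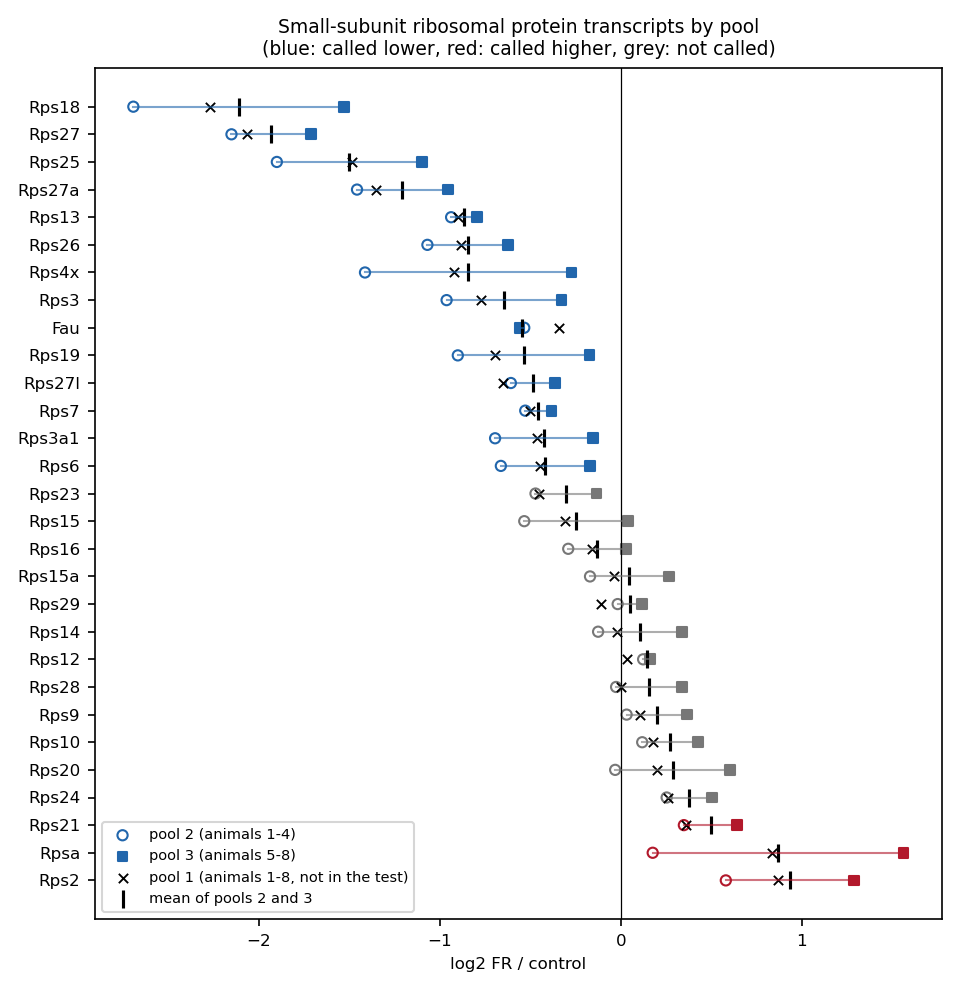
Log2 ratio of FR over control (horizontal axis) for each of the 29 genes (vertical axis, from lowest to highest mean), with pool 2 as open circles, pool 3 as squares, pool 1 as crosses and the mean of pools 2 and 3 as vertical ticks. Blue genes were called lower, red higher and grey not called. Means run from -2.11 for Rps18 to 0.93 for Rps2, and the circle lies left of the square for 28 of the 29 genes.

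How far these calls hold depends on how the spread between pools is estimated. From 2 pools alone, limma assigned the same variance to genes of similar signal, which makes the p-values of single genes too small. The prior degrees of freedom were instead set to the 5.41 estimated over 3 pools. Pool 1 holds the animals of pools 2 and 3, so that estimate counts the same mice again and is not one from independent replicates. With it, 6 members (20.7%) stayed lower and 1 (3.45%) higher, against 15.5% and 1.53% of all features, or 17.1% in either direction. The share of lower members then lay near that of all features. These were Rps18, Rps27, Rps25, Rps27a, Rps13 and Rps26, and Rps2 on the higher side. The same 7 genes were called in the same direction under all 21 alternatives that were run. The other 10 calls ended under that variance model and when FR and control were treated as unpaired.

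Rps18, a protein of the head of the subunit that contacts the large subunit, had the lowest ratio. It was at -2.69 in pool 2, -1.53 in pool 3 and -2.27 in pool 1, and the 6 arrays ran from -2.97 to -1.29. The mean of pools 2 and 3 was -2.11 ± 0.82 (SD, n = 2 pools), a 4.32-fold lower level in FR (adjusted p = 2.36e-41 with the common variance and 0.0052 with prior degrees of freedom from 3 pools). Every array lay on the same side of 0, and the fall was larger in pool 2 than in pool 3.

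Rps27, a zinc-finger protein of the subunit's body, was at -2.15 in pool 2, -1.71 in pool 3 and -2.06 in pool 1. Its mean of -1.93 ± 0.31 (SD, n = 2 pools) corresponds to 3.81-fold (adjusted p = 6.49e-34 and 0.00214 for the 2 variance models in the same order). Pools 2 and 3 lay closer together here than for Rps18. Its paralog Rps27l, which is induced by p53 and can replace Rps27 in the ribosome, was at -0.61, -0.36 and -0.65 in pools 2, 3 and 1. Its mean was -0.49 ± 0.17, or 1.40-fold (adjusted p = 0.0052 and 0.0694). Both paralogs were thus lower on every array, Rps27l by less, and the difference between them was not tested.

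Rps25, a head protein needed by several viral and cellular internal ribosome entry sites, was at -1.90 in pool 2, -1.10 in pool 3 and -1.48 in pool 1. The mean was -1.50 ± 0.57 (SD, n = 2 pools), or 2.83-fold (adjusted p = 6.21e-23 and 0.00664). Pool 1, which mixes the animals of both other pools, lay between them.

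Rps27a is made as a fusion to ubiquitin, so its gene also supplies free ubiquitin. It was at -1.46 in pool 2, -0.96 in pool 3 and -1.35 in pool 1, with a mean of -1.21 ± 0.35 (SD, n = 2 pools) or 2.31-fold (adjusted p = 9.17e-15 and 0.00675). Fau carries the other ubiquitin-like fusion of the small subunit, joining the ubiquitin-like protein FUBI to the ribosomal protein S30. Its ratio was -0.53 in pool 2, -0.56 in pool 3 and -0.34 in pool 1, with a mean of -0.55 ± 0.02 or 1.46-fold (adjusted p = 0.023 and 0.0965). Pools 2 and 3 of Fau nearly coincided, while the dye orientations of pools 1 and 3 did not. Within pool 3 the array with FR in Cy5 gave -0.84 and the one with FR in Cy3 gave -0.28, and pool 1 differed the other way (-0.14 and -0.54). The Fau call also ended with FR in Cy3 only (adjusted p = 0.382), without background subtraction (0.0587) and when pool 1 replaced pool 2 (0.0587).

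A further pair stayed lower under every alternative, at under 2-fold. Rps13, a body protein near the contact with the large subunit, was at -0.94 in pool 2, -0.79 in pool 3 and -0.90 in pool 1, with a mean of -0.87 ± 0.10 (SD, n = 2 pools; adjusted p = 2.76e-07 and 0.0116). Its 6 arrays fell between -0.95 and -0.75, the narrowest range among the lower members named so far. Rps26, which sits where the mRNA leaves the subunit and is mutated in Diamond-Blackfan anaemia, was at -1.07, -0.62 and -0.88 in pools 2, 3 and 1. Its mean was -0.85 ± 0.31 (adjusted p = 1.39e-07 and 0.0176).

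Most of the remaining members called lower were much lower in pool 2 than in pool 3. Rps4x, a body protein encoded on the X chromosome, was at -1.41 in pool 2 but -0.27 in pool 3, with a mean of -0.84 ± 0.81 (SD, n = 2 pools; adjusted p = 2.23e-07 and 0.0811). When pool 1, which shares animals with pool 3, replaced pool 2, the mean of Rps4x was -0.60 (adjusted p = 0.0663). Rps3, which lines the channel by which mRNA enters, was at -0.96 and -0.33 (mean -0.64 ± 0.45, adjusted p = 0.000175 and 0.0653). Both genes were negative in every pool and differed between pools by more than 0.6.

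Rps19, the gene most often mutated in Diamond-Blackfan anaemia, was at -0.90 in pool 2 and -0.17 in pool 3 (mean -0.54 ± 0.51, adjusted p = 0.00144 and 0.128). Rps6, the subunit protein that S6 kinase phosphorylates downstream of mTORC1, was at -0.66 and -0.17 (mean -0.42 ± 0.35, adjusted p = 0.0169 and 0.154). Rps3a1 was at -0.69 and -0.15 (mean -0.42 ± 0.38, adjusted p = 0.0219 and 0.174), and Rps7 at -0.53 and -0.38 (mean -0.46 ± 0.10, adjusted p = 0.0116 and 0.0803). The same replacement ended the calls for Rps19 (adjusted p = 0.0921), Rps6 (0.076) and Rps3a1 (0.0963), and Rps7 kept its call. With FR in Cy3 only, the calls of these 4 genes and those of Rps3 and Rps27l ended as well, with adjusted p from 0.0826 for Rps3 to 0.355 for Rps3a1. Without the filter on dim probes, and with the scanner's processed signals after loess, Rps3a1 (adjusted p = 0.116 and 0.104), Rps6 (0.152 and 0.0804) and Rps7 (0.0815 and 0.0731) also missed the threshold.

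Of the 29 members, 3 rose. Rps2, which lines the mRNA entry channel beside Rps3, was at 0.58 in pool 2, 1.29 in pool 3 and 0.87 in pool 1, and the 6 arrays ran from 0.47 to 1.47. Its mean was 0.93 ± 0.50 (SD, n = 2 pools), or 1.91-fold higher in FR (adjusted p = 6.49e-07 and 0.0294). All 6 arrays were above 0, and pool 3 was the higher pool.

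Rpsa, a protein at the mRNA exit side that is also known as the laminin receptor, was at 0.18 in pool 2, 1.56 in pool 3 and 0.83 in pool 1. Its mean of 0.87 ± 0.98 (SD, n = 2 pools) carries a spread larger than the mean (adjusted p = 2.85e-08 with the common variance, 0.111 with prior degrees of freedom from 3 pools and 0.138 without pairing). The size of its rise rests on pool 3, and with pool 1 in its place the mean was 0.51 (adjusted p = 2.2e-08, from pools that share animals). Rps21, the neighbour of Rpsa in the subunit, was at 0.35, 0.64 and 0.36 in pools 2, 3 and 1 (mean 0.50 ± 0.21, adjusted p = 0.00828 and 0.0843). With median centring in place of loess the Rps21 value was 0.35 (adjusted p = 0.212), with FR in Cy5 only it was 0.19 (0.244), and without the FR in Cy3 array of pool 3 it was 0.34 (0.0557).

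The 12 members that were not called had means from -0.30 to 0.38, with adjusted p from 0.0833 to 0.885. Rps23, at the decoding site, was nearest to a call on the lower side at -0.30 ± 0.24 (adjusted p = 0.201), and Rps24, mutated in some Diamond-Blackfan families, on the higher side at 0.38 ± 0.18 (adjusted p = 0.0833). Rps15 was at -0.25 and Rps16 at -0.13. Rps15a, Rps29, Rps14, whose loss contributes to the anaemia of the 5q- syndrome, Rps12, Rps28, Rps9, Rps10 and Rps20 lay between 0.05 and 0.29. In 7 of the 12 the ratio had opposite signs in pools 2 and 3. These 7 were the only such members among the 29, against 2751 of all 11498 features. When pool 1 was counted as one more replicate, Rps23 (adjusted p = 0.0173), Rps24 (0.0132) and Rps10 (0.0458) passed. When it replaced pool 3, Rps23 (3.09e-07), Rps24 (0.00655), Rps15 (4.06e-06) and Rps16 (0.0196) passed. Pool 1 holds animals of both other pools, so these fits count the same mice again. Their p-values are not those of independent replicates. Without pool 1, Rps23 (adjusted p = 0.00531), Rps15 (0.00498) and Rps16 (0.0419) passed with FR in Cy5 only. Rps23 also passed with processed signals centred on the median (0.0224), and Rps15 without the FR in Cy3 array of pool 3 (0.0408). Rps24 passed with processed signals after loess (0.0254) and when the variance did not follow the signal (0.0447).

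By place in the subunit, 5 of 12 head proteins were called lower and 7 were not called (median -0.19), and 9 of 17 body and platform proteins were lower and 3 higher (median -0.42). This grouping was made after the values were seen and was given no test. Among all features 24.5% were called lower and 3.74% higher. With prior degrees of freedom from 3 pools, Rps18, Rps25 and Rps27a stayed lower in the head. Rps27, Rps13 and Rps26 stayed lower in the body and platform, where Rps2 stayed higher. The lowest ratio of each group was -2.11 (Rps18) and -1.93 (Rps27), so both places held members called lower by over 2-fold beside members that were not called.

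**Figure D2:**
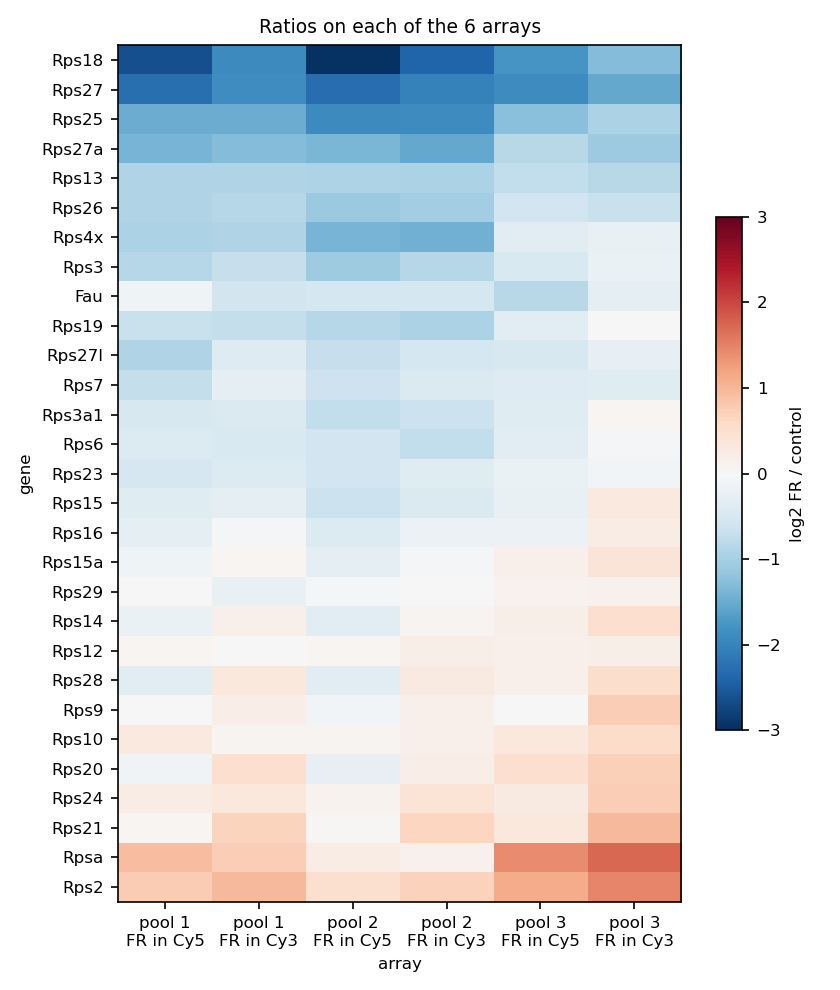
Log2 ratio of FR over control on each of the 6 arrays (columns, by pool and by the dye of the FR sample) for the 29 genes (rows, in the order of their means), on a colour scale from -3 (blue) to 3 (red). The top rows are blue on every array, from -2.97 to -0.58 for the 6 genes from Rps18 to Rps26, and the Rps2 row is red on every array.

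The array-by-array values show which genes kept 1 direction. On all 6 arrays 14 members were below 0 and 6 above 0. The 14 were the lower members other than Rps3a1, which was at 0.05 on the pool 3 array with FR in Cy3, together with Rps23. The 6 were Rps12, Rps10, Rps24, Rps21, Rpsa and Rps2. On the 4 arrays of pools 2 and 3 the same numbers held, 48.3% of the members below and 20.7% above 0 on every array, against 31.3% and 17.7% of all features.

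The dye moved with the ratio. The array with FR in Cy5 gave the lower value of the 2 orientations for 22 of 29 members in pool 1, 22 in pool 2 and 26 in pool 3, and the median difference was -0.09, -0.17 and -0.29. Over all features the median difference was 0.01, 0.00 and -0.05. Averaging both orientations within a pool balances this difference. With FR in Cy5 alone 17 members were called lower and 2 higher, and with FR in Cy3 alone 7 and 3.

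The pools differed in a shared direction. In 28 of 29 members pool 2 was lower than pool 3, with a median difference of -0.44, whereas 53.9% of all features were lower in pool 2 (median difference -0.03). Fau was the exception, with pools within 0.03 of each other. The median of the members was -0.53 in pool 2, -0.13 in pool 3 and -0.34 in pool 1. Of the 29 members 22 were below 0 in pool 2 and 15 in pool 3, against 5620 and 6391 of all 11498 features. Pool 1, made of the animals of both, lay between pools 2 and 3 for 25 of the 29 members (86.2%, against 52.2% of all features). The order of the genes was alike in both pools (Pearson r = 0.91 over 29 genes, and 0.85 over 11498 features, a description across genes that share arrays). Large-subunit genes moved with the pools in the same way, with 46 of 48 lower in pool 2.

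**Figure D3:**
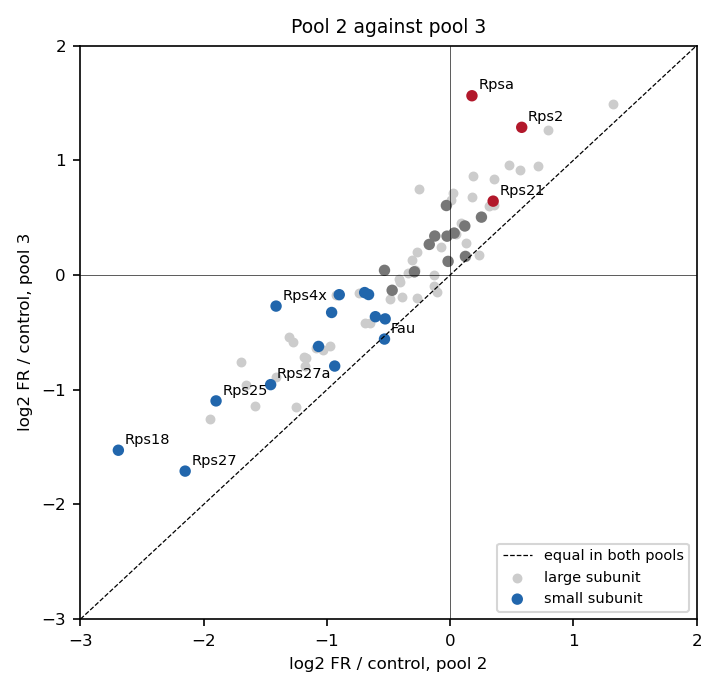
Log2 ratio of FR over control in pool 2 (horizontal axis) and pool 3 (vertical axis) for 29 small-subunit genes (blue called lower, red called higher, dark grey not called) and 48 large-subunit genes (light grey). Nearly all points lie above the dashed line of equal ratios, 28 of 29 for the small subunit, with Rps18 at -2.69 and -1.53 and Rpsa at 0.18 and 1.56.

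Probes of 1 gene agreed where both were bright enough to test. Of the 9 genes with 2 probes, both passed the filter on dim probes for 6, namely Rps18, Rps3, Rps3a1, Rps28, Rps21 and Rps2, and in each of the 6 both had the same sign. The second probe of Rps18 was at -1.93 ± 0.73, beside -2.11 ± 0.82 for the first, and that of Rps2 at 1.04 ± 0.61, beside 0.93 ± 0.50. The Rps21 probes were at 0.50 and 0.51, the Rps28 probes at 0.16 and 0.14, and the Rps3 probes at -0.64 and -0.51. The second Rps3a1 probe, at -0.31 ± 0.47, was the 1 that differed in call (adjusted p = 0.13, against 0.0331 for the first when every probe was tested).

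For Rps25, Rpsa and Rps15a the second probe was too dim to be tested. These probes read 0.04 ± 0.05 for Rps25, -0.10 ± 0.13 for Rpsa and 0.02 ± 0.08 for Rps15a. So the fall of Rps25 and the rise of Rpsa each rest on 1 probe, and the dim probe of each gene lay near 0. Ratios of dim probes are pulled toward 0 by the offset added to the signals. Ribosomal protein genes have many processed pseudogenes, and whether a probe also binds copies of its gene was not tested.

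**Figure D4:**
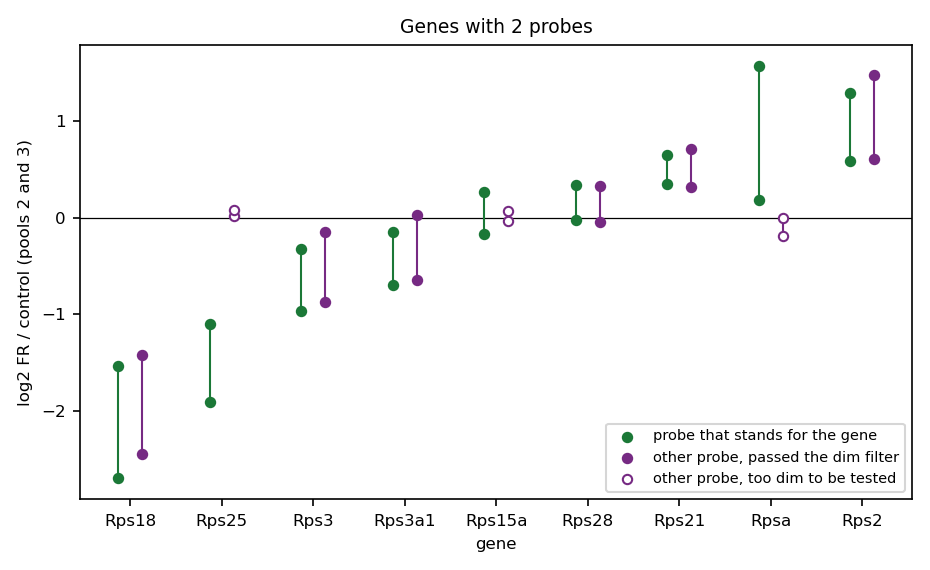
Log2 ratio of FR over control in pools 2 and 3 (2 points joined by a line) for each probe of the 9 genes with 2 probes. Green marks the probe that stands for the gene, purple the other probe, and open circles a probe too dim to be tested. Pairs of bright probes lie side by side, as for Rps18 at -2.11 and -1.93, and the 3 open pairs lie between -0.19 and 0.08.

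Related genes were read from lists in the same fit. Of 48 large-subunit genes 18 were lower and 10 higher (median -0.14). The lowest were Rpl22l1, Rpl11 and Rpl3 at -1.60 ± 0.49, -1.36 ± 0.31 and -1.31 ± 0.49, and the highest Rpl41, Rplp1 and Rpl35 at 1.40 ± 0.12, 1.03 ± 0.33 and 0.83 ± 0.17. Both subunits thus held called members in each direction. The shares of each subunit that were called, 58.6% of the small and 58.3% of the large, stood against 28.3% of all features, and no difference between the subunits was tested. With prior degrees of freedom from 3 pools, 14 large-subunit genes stayed lower (29.2%) and 3 higher (6.25%), or 35.4% of 48. Of the 29 small-subunit genes 6 stayed lower (20.7%) and 1 higher (3.45%). Among all features these shares were 15.5% and 1.53%, or 17.1% in either direction.

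Factors that build the small subunit in the nucleolus and cytoplasm were called lower in 9 of 26 tested members (34.6%, against 24.5% of all features), with 17 not called (median -0.12). Of the 9, 7 passed the filter on dim probes through control alone, and 3 of these had no FR array above background. With prior degrees of freedom from 3 pools 6 of 26 stayed lower (23.1%, against 15.5%). Those with the lowest ratios were Imp3, of the U3 particle that cleaves the ribosomal RNA precursor, at -1.28 ± 0.43, the RNA methyltransferase fibrillarin (Fbl) at -1.27 ± 0.30, and Nop10, of the box H/ACA particles that form pseudouridine, at -1.16 ± 0.26. Imp3 and Nop10 are among the 7, with FR above background on 2 of the 4 arrays. Initiation factors and other proteins that bind the small subunit were lower in 11 of 23 and higher in 1 (median -0.33). These were 47.8% and 4.35%, against 24.5% and 3.74% of all features. Of the 11, 2 passed the filter on dim probes through control alone. They were Eif3m, with FR above background on 3 of the 4 arrays, and Abce1, with none. The eIF3 subunits Eif3l, Eif3g and Eif3m were at -1.43 ± 0.66, -1.41 ± 0.53 and -1.16 ± 0.34, and Eif3c at 0.83 ± 0.50 was the higher one, so subunits of 1 complex went both ways. With prior degrees of freedom from 3 pools 9 stayed lower (39.1%) and 1 higher (4.35%), against 15.5% and 1.53% of all features.

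The list of the mTORC1 and S6 kinase axis had 28 genes, of which 22 had a probe and 15 were tested. Mtor, Rptor, Rps6kb1 and Larp1 were not among those tested. Of the 15 tested genes 7 were lower, also with prior degrees of freedom from 3 pools, and 8 were not called (median -0.34). The 7 were 46.7%, against 24.5% of all features with the common variance and 15.5% with prior degrees of freedom from 3 pools. Of the 7, 2 (Lamtor2 and Rheb) passed the filter on dim probes through control alone, with FR above background on 3 of the 4 arrays. The translation repressors Eif4ebp1 and Eif4ebp2, which mTORC1 inactivates, were at -1.63 ± 0.08 and -0.92 ± 0.34, and the amino acid sensing GTPase Rraga at -0.94 ± 0.15. The kinase gene Rps6kb2 was at 0.24 ± 0.05 and did not pass (adjusted p = 0.284). These are transcript ratios, and neither kinase activity nor translation was measured.

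**Figure D5:**
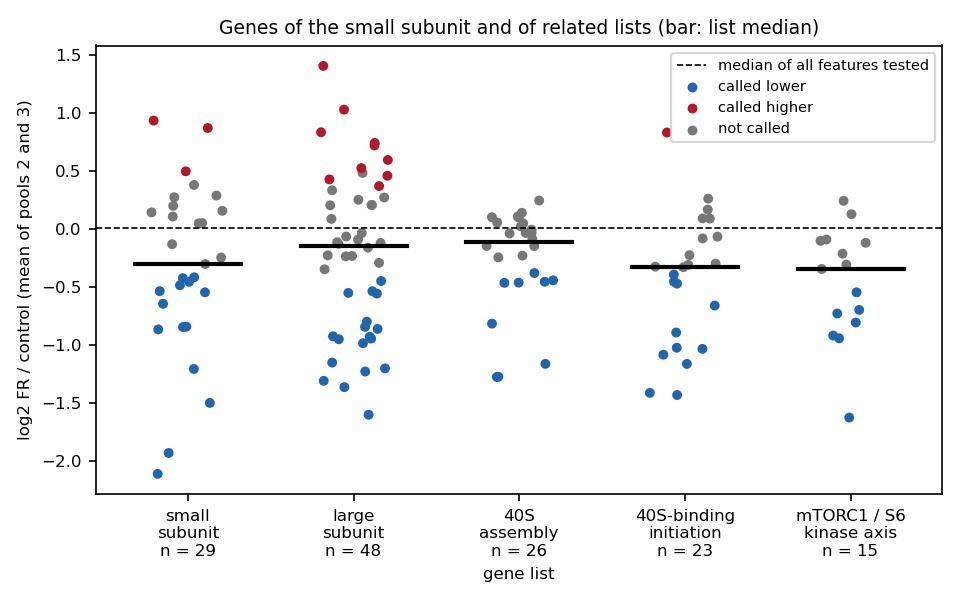
Log2 ratio of FR over control (vertical axis, mean of pools 2 and 3) for single genes in 5 lists (horizontal axis), coloured by call, with the list median as a bar and the median of all 11498 features as a dashed line. Medians run from -0.34 for the mTORC1 and S6 kinase axis to -0.12 for the assembly factors, and points lie on both sides of 0 in every list.

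Markers of the blood's cell types moved in the same pools, and their part in the ribosomal protein ratios was not tested. The globin gene Hba-a1 was above background in both diets on all 4 arrays, with a ratio of 0.01 ± 0.21. B cell markers were lower in 13 of 15 (median -1.59) and their summed normalized signal was 3116 to 3121 in FR and 12275 to 18088 in control. Monocyte markers were lower in 10 of 13 (median -0.99, sums 6985 to 8878 in FR and 36989 to 54653 in control), and platelet markers in 14 of 19 (median -0.93, sums 52025 to 55503 and 125199 to 125256). T cell markers were lower in 5 of 13 (median -0.14, sums 3738 to 3871 and 5153 to 5245), and neutrophil markers lower in 4 and higher in 1 of 13 (median -0.03). The neutrophil sums were 11581 in FR and 24049 in control in pool 2, and 11520 and 12725 in pool 3. The lower shares were 86.7% (B cell), 76.9% (monocyte), 73.7% (platelet), 38.5% (T cell) and 30.8% (neutrophil), against 24.5% of all features. Of the neutrophil markers 7.69% were higher, against 3.74% of all features. For 2 B cell, 3 monocyte and 1 T cell marker, no array of the 4 had an FR signal well above background. Of the markers called lower, 9 of 13 for B cells, 5 of 10 for monocytes and 4 of 5 for T cells passed the filter through control alone. With prior degrees of freedom from 3 pools, 12 B cell, 8 monocyte, 13 platelet, 5 T cell and 1 neutrophil marker stayed lower, and no neutrophil marker stayed higher. Their shares in the same order were 80%, 61.5%, 68.4%, 38.5% and 7.69%, against 15.5% of all features.

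Of 21 red cell markers, 6 were higher (28.6%) and 2 lower (9.52%), against 3.74% and 24.5% of all features (median 0.13). With prior degrees of freedom from 3 pools these were 3 (14.3%) and 2 (9.52%), against 1.53% and 15.5%. The summed signal of the red cell markers was 844619 in FR and 849500 in control in pool 2, and 974716 and 725576 in pool 3. In 20 of the 21 the ratio was lower in pool 2 than in pool 3, with list medians of -0.14 and 0.32. Most other lists were shifted between the pools in that direction too, with 15 of 15 B cell, 12 of 13 monocyte, 11 of 13 neutrophil, 22 of 23 initiation factor and 14 of 15 mTORC1 axis genes lower in pool 2. The counts were 8 of 13 for T cell, 16 of 26 for assembly factor, 7 of 19 for platelet and 1 of 5 for heart muscle genes. The summed signal of the 29 members was 272826 in FR and 325217 in control in pool 2, and 300499 and 289160 in pool 3. Of 5 tested heart muscle markers limma called 0, and 1 had an unadjusted p under 0.05.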

How the data were processed

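Blood RNA of 2 diets was compared on 6 two-colour arrays; the members, the gene lists and the tests were chosen with earlier results of these data known. The deposited scanner files hold intensity values (median spot and background signals, and processed signals), and the submitters' processing notes name Agilent Feature Extraction, version 11.0.1.1. The authors also deposited a series table of log10 ratios of red over green processed signal, uncentred, with swapped arrays not turned: it differed from the scanner files by at most 5e-10. Its column medians for FR in Cy5 and FR in Cy3 were -0.00938 and -0.0277 (pool 1), 0.0441 and 0.00763 (pool 2), 0.0520 and -0.0221 (pool 3).

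Signals were corrected with normexp (offset 50) and loess within arrays, control spots at weight 0. Spots marked as outliers were left out (no member lost an array), ratios were turned to FR over control by the dyes in the labels, and the 2 arrays of a pool were averaged. No spot was saturated, and 20.4% to 62.1% of spots per channel were well above background. Probes were kept where 1 of the diets, FR or control, exceeded background clearly on each of the 4 arrays of pools 2 and 3, and a gene was represented by its probe of highest mean signal. Names came from RefSeq (GRCm38.p6) by accession, for 23374 of 41174 probes. With R 4.3.3, limma 3.58.1 (lmFit and a trended eBayes, two-sided, Benjamini-Hochberg adjustment) tested pools 2 and 3 against 0 over 11498 features, 7905 of them named. FR and control share each array, so the pool is a block by construction. Probe agreement used the same fit over 13258 probes. The test was checked on simulated data. The simulation gave every gene the same spread, so it could not check the p-values where spreads differ between genes. The genes given in full were the 5 highest and lowest among those called, those whose probes differed, Rps27, Rps27l, Rps27a and Fau; from the other pathway lists, up to 3 called genes in each direction; further members, markers and Rps6kb2 were named after their values were seen. Summed signals are per channel after loess and Aquantile normalization. The number of pools limits the precision.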

Additional observations from a re-analysis of the deposited data

Results flagged for a closer look

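Among the 29 genes, 1 array value stood apart from the other 5 of its gene by Dixon's test at 95%, where chance marks about 1 gene in 20. It was Rps9, at 0.73 on the pool 3 array with FR in Cy3, against -0.09 to 0.21 on the other 5 arrays. Rps9 was not called. That array also had the fewest spots well above background in the FR channel (20.4%).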

How the results depend on the processing

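No called member changed direction under any of the 21 alternatives, 20 of them planned. The median of the members stayed below 0 under each, from -0.44 to -0.22, against -0.30 as reported. Median centring moved the median of all features from 0.01 to -0.18 and that of the members to -0.44, so the members lay 0.26 below all features there and 0.31 below as reported. The number of members called moved by over 1.5 times in these settings: with all 3 pools as replicates 5 were higher, with FR in Cy3 only 7 were lower, and both with no replicate block and with prior degrees of freedom taken from 3 pools 6 were lower and 1 higher. With pool 1 in the place of either pool, which shares animals with the pool kept, 9 (without pool 2) to 17 (without pool 3) were lower, 3 to 4 were higher and the median was -0.29 to -0.44. The cause of these shifts was not tested. Over all 11498 features, 430 were called higher and 2820 lower as reported, and these counts ran from 116 (no replicate block) to 1721 (without pool 3) and from 984 to 4161 in the same settings. Without the pool 3 array with FR in Cy3, a setting chosen after the data were seen, 15 were lower and 2 higher. The series table gave the values of the processed signals centred on the median. Dropping 1 pool leaves no residual degrees of freedom, so it was replaced by pool 1.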
